A study of Mus musculus with 8 samples.

Results

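Regions carrying acetylated histone H3 lysine 27 (H3K27ac, which marks promoters and enhancers in use) were examined at 10 genes of the NF-κB pathway in mouse primary hepatocytes (MPH). The genes were the NF-κB subunits Nfkb1, Nfkb2, Rela and Relb, the inhibitors Nfkbia, Nfkbiz and Tnfaip3, and the chemokine genes Cxcl1, Cxcl2 and Ccl2. They were taken as a list and make 10 of the 55341 gene symbols of GENCODE release M21 on mm10. MPH from wild-type adult male C57Bl6 mice (C57BL/6J in the methods of the study) were kept in serum-free medium and treated for 4 h with 1 µM thapsigargin, which blocks the calcium pump of the endoplasmic reticulum and so induces endoplasmic reticulum stress (ERS), or with vehicle (0.04% DMSO). Each treatment has 3 H3K27ac libraries from independent MPH preparations and 1 input library, which makes 8 libraries. From these together, the authors made 3 lists of regions, named H3K27ac UP, H3K27ac DOWN and unchanged. A region is UP or DOWN where the authors' test of thapsigargin against vehicle, paired by preparation, had a false discovery rate (FDR) of at most 0.05. The count of its bins (short stretches of the genome) that were UP over those DOWN also had to be 2 or more, or 0.5 or less. A region is unchanged where the FDR was higher, which does not show that the signal was equal. By these rules, regions at this FDR with a ratio in between are in none of the lists. A gene without a listed region may therefore still carry H3K27ac. The lists give positions alone, so no level, fold change, replicate spread or library depth can be given for any region. The data come from cultured cells after a single dose and time, and a change in every cell cannot be told apart from a change in some of the cells.

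NF-κB factors are dimers of REL-family proteins. They are held inactive by IκB proteins, of which Nfkbia encodes IκBα, until the IκB kinase marks these for degradation, and the freed dimers then bind κB sites in DNA. Nfkbia and Tnfaip3 are themselves classical NF-κB targets and close negative feedback loops, while CXCL1 and CXCL2 attract neutrophils and CCL2 attracts monocytes. ERS is known to favour NF-κB release, in part because attenuated translation lowers the amount of IκBα. None of these activities was measured here.

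The promoters of 6 of the genes are shown first, since matches to the κB consensus can be marked in them. The H3K27ac call at the gene start also differs among them. Each is the RefSeq window of GRCm38.p6 (the assembly named mm10) from 250 bases before to 50 bases after a RefSeq start site. It is given 5′ to 3′ on the strand of the gene. This start can differ from the gene start in GENCODE, and for Nfkb2, Tnfaip3, Rela, Cxcl1 and Cxcl2 it lies inside the gene. RefSeq promoters matched 6 of the 10 genes, the others being Nfkb1, Relb, Nfkbiz and Ccl2. The window nearest to the start of the gene is shown where RefSeq gives several, which it does for Nfkb2 (3 windows) and Tnfaip3 (2 windows). Capitals mark matches to the κB consensus and to the AP-1 motif TGANTCA, searched on both strands with the composite ATF4/CHOP motif TGATGNAAT. The first 2 promoters lie in H3K27ac UP regions, the next 2 in unchanged regions, that of Rela in a DOWN region and that of Tnfaip3 in no region.
Nfkbia, chr12:55492598-55492897, minus strand: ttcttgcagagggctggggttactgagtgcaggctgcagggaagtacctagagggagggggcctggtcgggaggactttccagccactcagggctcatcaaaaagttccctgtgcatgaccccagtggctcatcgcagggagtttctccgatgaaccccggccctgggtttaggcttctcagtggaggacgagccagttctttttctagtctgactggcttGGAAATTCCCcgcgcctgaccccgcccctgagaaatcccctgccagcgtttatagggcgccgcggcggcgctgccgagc
Cxcl2, chr5:90903649-90903948, plus strand: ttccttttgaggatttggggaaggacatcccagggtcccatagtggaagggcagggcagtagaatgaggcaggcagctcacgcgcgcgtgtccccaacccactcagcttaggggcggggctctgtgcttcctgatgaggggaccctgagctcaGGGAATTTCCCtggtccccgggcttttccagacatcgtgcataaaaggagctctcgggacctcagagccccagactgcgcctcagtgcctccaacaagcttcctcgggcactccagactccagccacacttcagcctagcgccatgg
Cxcl1, chr5:90890995-90891294, plus strand: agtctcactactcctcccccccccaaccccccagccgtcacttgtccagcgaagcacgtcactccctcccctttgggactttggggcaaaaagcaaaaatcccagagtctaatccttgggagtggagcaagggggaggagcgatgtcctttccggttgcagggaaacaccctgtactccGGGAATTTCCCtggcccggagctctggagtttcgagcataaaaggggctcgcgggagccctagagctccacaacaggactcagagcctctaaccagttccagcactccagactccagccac
Nfkb2, chr19:46304487-46304786, plus strand: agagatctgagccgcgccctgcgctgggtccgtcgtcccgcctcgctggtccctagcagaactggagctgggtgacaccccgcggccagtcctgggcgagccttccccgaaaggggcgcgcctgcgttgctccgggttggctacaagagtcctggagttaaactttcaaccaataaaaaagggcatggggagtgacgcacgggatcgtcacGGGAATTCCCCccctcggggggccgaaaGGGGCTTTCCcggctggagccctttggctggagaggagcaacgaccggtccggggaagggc
Rela, chr19:5637291-5637590, plus strand: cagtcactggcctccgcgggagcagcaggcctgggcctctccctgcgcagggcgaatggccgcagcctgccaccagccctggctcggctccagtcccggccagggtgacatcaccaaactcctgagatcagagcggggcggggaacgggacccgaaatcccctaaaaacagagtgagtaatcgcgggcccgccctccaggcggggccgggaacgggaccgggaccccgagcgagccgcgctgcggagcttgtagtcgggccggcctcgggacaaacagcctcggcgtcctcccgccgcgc
Tnfaip3, chr10:19015361-19015660, minus strand: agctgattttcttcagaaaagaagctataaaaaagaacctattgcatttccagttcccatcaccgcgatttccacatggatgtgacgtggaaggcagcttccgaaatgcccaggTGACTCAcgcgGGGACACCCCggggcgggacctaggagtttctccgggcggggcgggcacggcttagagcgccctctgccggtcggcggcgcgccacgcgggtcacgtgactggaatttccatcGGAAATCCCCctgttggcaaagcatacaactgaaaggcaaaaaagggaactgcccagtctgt

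The promoters shown for Nfkbia, Cxcl2, Cxcl1, Nfkb2 and Tnfaip3 hold at least 1 κB match each, and that of Rela holds 0. Of the windows not shown, those of Nfkb2 hold 2 κB matches with 1 AP-1 match and 1 κB match, and that of Tnfaip3 holds 0 κB and 0 AP-1 matches. A κB match is found in 8.46% of the 32851 RefSeq promoters, an AP-1 match in 7.81% and an ATF4/CHOP match in 0.965%. In Nfkbia, the match extends from base -29 to base -20, where this and the following positions are counted from the RefSeq start site of the window as +1. Cxcl1 and Cxcl2 hold an identical element, which counts as 2 overlapping matches on opposite strands. It extends from -71 to -61 in Cxcl1 and from -97 to -87 in Cxcl2, so that these promoters share the element while only the Cxcl2 promoter lies in an UP region. Nfkb2 has overlapping matches from -39 to -29 and a further match from -11 to -2. In Tnfaip3, κB matches lie from -125 to -116 and from -12 to -3, and the AP-1 match, which does not overlap them, from -136 to -130. No ATF4/CHOP match was found in these 6 windows. A match describes letters and is not evidence of binding.

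At the transcription start sites (TSSs), H3K27ac calls went in both directions. Nfkbia and Cxcl2 had a TSS in an UP region, Rela and Ccl2 in a DOWN region, and Nfkb1, Nfkb2, Relb, Nfkbiz and Cxcl1 in unchanged regions alone, while Tnfaip3 had no region at a TSS. Of the 9 genes with a region at a TSS, 2 (22.2%) were thus at UP regions, beside 21.4% of the 12261 genes with a TSS in any region. Another 2 (22.2%) were at DOWN regions, beside 8.91% of the same genes. The share at UP is that of all genes, and 9 genes do not allow a statement about the share at DOWN. Among all protein-coding genes, 44.7% had a TSS in a region.

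**Figure D1:**
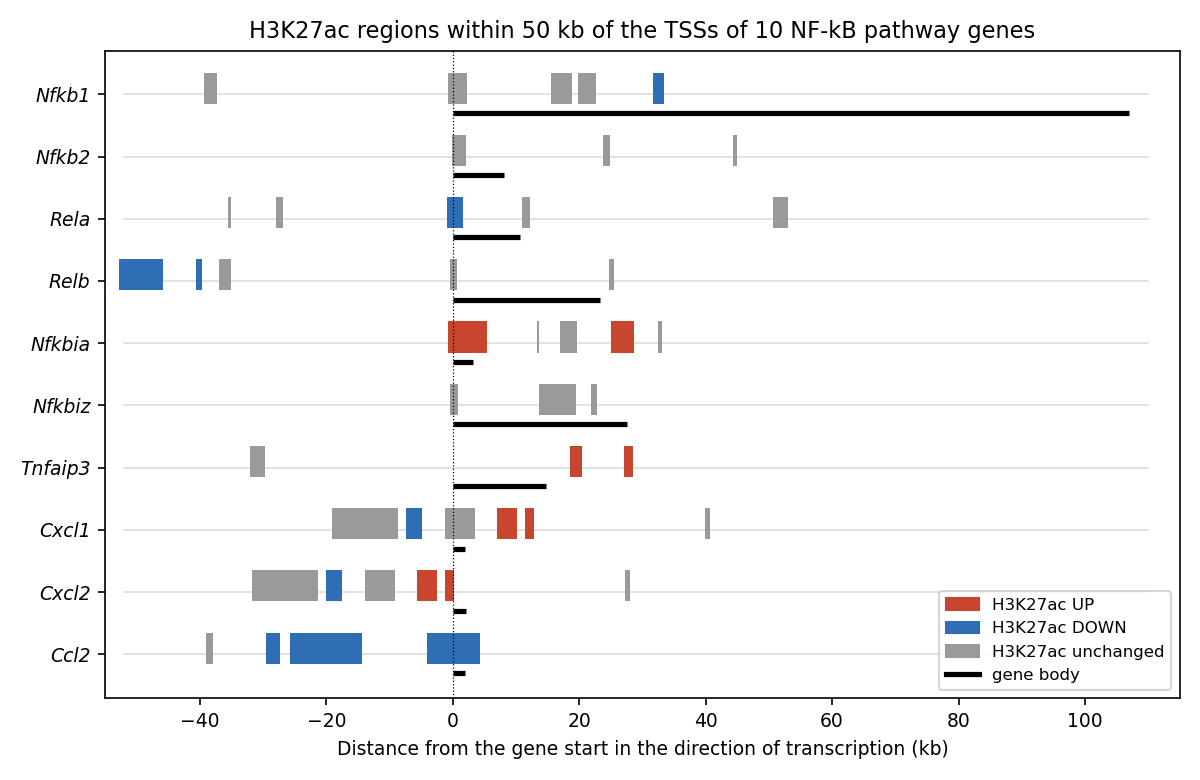
Each row shows the H3K27ac regions within 50 kb of the TSSs of 1 gene, with the distance from the gene start in kb along the direction of transcription on the horizontal axis and the gene body as a black bar. UP regions (red) lie at or downstream of Nfkbia and Tnfaip3 and around Cxcl2, and 3 of the 4 regions near Ccl2 are DOWN (blue).

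Of the 4 NF-κB subunit genes, 3 had a DOWN region within 50 kb of a TSS and 0 had an UP region. Among the protein-coding genes with any region there, 27.7% had a DOWN and 46.9% an UP region. These 4 genes do not allow a statement about either share. Rela (chromosome 19, 5637483 to 5648130, plus strand) encodes p65, the subunit with the main transactivation domain. Of its 7 transcripts, 6 start in a 2417-bp DOWN region (5636627 to 5639043), which covers the promoter and the first part of the gene. This width is at percentile 28.9 of the DOWN regions that hold a TSS. The other 4 regions within 50 kb of Rela are unchanged, among them one of 1007 bp at the TSS of Kat5 and one of 2476 bp at the TSSs of Pcnx3 and Map3k11. The nearest UP region lies 82.9 kb from a Rela TSS.

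Nfkb1 (chromosome 3, 135584655 to 135691547, minus strand) encodes the p105 precursor of p50. Of its 10 transcripts, 3 start in a region, and both regions concerned are unchanged, the one over the gene start being 3069 bp wide and the one further inside the gene 2785 bp wide. Another unchanged region of 3210 bp lies in an intron. The DOWN region of Nfkb1 is inside the gene, 31.6 kb to 33.4 kb downstream of its start (135658105 to 135659936, 1832 bp), overlaps exon and intron sequence and holds no TSS. An unchanged region of 2063 bp lies 37.3 kb upstream, and the nearest UP region lies 71.2 kb from an Nfkb1 TSS.

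Nfkb2 (chromosome 19, 46304320 to 46312385, plus strand) encodes the p100 precursor of p52, and all 8 of its transcripts start in a single unchanged region of 2260 bp, from 46304120 to 46306379. Only 2 other regions lie within 50 kb, at Fbxl15 (1055 bp) and near 2310034G01Rik (613 bp), and both are unchanged. The nearest changed region of either direction is UP and 172 kb away. Relb (chromosome 7, 19606217 to 19629438, minus strand), the partner of p52 in the non-canonical pathway, has 8 of 10 transcripts starting in an unchanged region of 1075 bp, the narrowest at a TSS of the 10 genes. Both DOWN regions near Relb, of 1016 bp and 6878 bp, lie upstream, 39.7 kb to 52.7 kb from its start. The wider one holds the TSSs of the apolipoprotein genes Apoc2 and Apoc4, and the other lies 3.81 kb from Apoc2, so these calls lie closer to other genes than to Relb.

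Of the 3 inhibitor genes, 2 had an UP region within 50 kb and 0 had a DOWN region. Among the protein-coding genes with any region there, 46.9% had an UP and 27.7% a DOWN region, and 3 genes do not allow a statement about either share. Nfkbia (chromosome 12, 55489410 to 55492647, minus strand) lies entirely in an UP region of 6061 bp, from 55487299 to 55493359, which holds the TSSs of both of its transcripts. It is wider than 90.3% of UP regions with a TSS. A second UP region of 3636 bp (55463943 to 55467578) lies between genes, 25.1 kb to 28.7 kb downstream of the gene start, and Nfkbia is the nearest protein-coding gene by TSS. Between these UP regions lie unchanged regions of 376 bp and 2598 bp, and a further unchanged region of 714 bp lies beyond the second. UP regions made 72.4% of the 13385 bp of regions within 50 kb, and the nearest DOWN region was 796 kb away.

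Tnfaip3 (chromosome 10, 19000910 to 19015657, minus strand) encodes A20, a ubiquitin-editing enzyme that restrains NF-κB signalling. Its 6 transcripts start outside of the regions and its gene body holds 0 regions. A pair of UP regions nevertheless lies downstream of the gene, at 18.5 kb to 20.5 kb (18995196 to 18997158, 1963 bp) and at 27.1 kb to 28.4 kb (18987222 to 18988586, 1365 bp) from the gene start. Both are intergenic with Tnfaip3 as the nearest protein-coding gene by TSS, and an unchanged region of 2504 bp lies 29.6 kb upstream. For comparison, 36.6% of the 6388 protein-coding genes with no region at a TSS but with one within 50 kb had at least 1 UP region there.

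Nfkbiz (chromosome 16, 55811375 to 55838899, minus strand) encodes IκBζ, a nuclear IκB protein that also acts as a co-activator at some NF-κB targets. Of its 6 transcripts, 4 start in an unchanged region of 1345 bp at the gene start and 1 starts in an unchanged region of 5802 bp inside the gene. The latter is wider than 95.6% of unchanged regions with a TSS. Another unchanged region of 818 bp lies within the gene as well, and no other region lies within 50 kb of its TSSs. The nearest UP region is 133 kb away and the nearest DOWN region 1719510 bp away. Nfkb2 and Nfkbiz were the 2 genes of the 10 with no changed region within 50 kb, beside 38.3% of the 16193 protein-coding genes that have any region there.

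The chemokine genes differed in the calls at their TSSs. Cxcl1 (90891241 to 90893115) and Cxcl2 (90903871 to 90905938) are neighbours on the plus strand of chromosome 5 and share the same 6 regions within 50 kb. From Cxcl1 outward, an unchanged region of 10430 bp lies 8.67 kb to 19.1 kb upstream and a DOWN region of 2472 bp (90883849 to 90886320) 4.92 kb to 7.39 kb upstream. Cxcl1 itself lies in an unchanged region of 4820 bp (90889961 to 90894780), which is wider than 92.9% of unchanged regions with a TSS. An UP region of 3162 bp (90898258 to 90901419) follows in the interval between the genes, 2.45 kb before the start of Cxcl2. The UP region at Cxcl2 (90902699 to 90904019, 1321 bp) holds the TSSs of all 4 transcripts but ends 0.148 kb after the gene start, so that most of the gene lies outside. It is at percentile 23.9 of the UP regions with a TSS. Cxcl2 therefore did not count at an UP region once a margin of 500 bp around the TSS was required. The sixth region, unchanged and 751 bp wide, is at the TSS of Mthfd2l.

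Ccl2 (chromosome 11, 82035571 to 82037453, plus strand) had the largest summed width of DOWN regions of the 10 genes. It lies entirely in a DOWN region of 8414 bp (82031452 to 82039865), which also holds a TSS of Gm17268. This region is wider than 85.6% of DOWN regions with a TSS and than 98.4% of all regions. A DOWN region of 11409 bp, from 82009760 to 82021168, lies 14.4 kb to 25.8 kb upstream and holds a TSS of the predicted gene Gm31522. Another of 2234 bp lies 27.3 kb to 29.6 kb upstream, between genes and with Ccl2 nearest by TSS. DOWN regions made 95.4% of the 23115 bp of regions within 50 kb, an unchanged region of 1058 bp made the rest, and the nearest UP region was 1085260 bp away. At least 3 DOWN and 0 UP regions within 50 kb were found for 1.45% of the 16193 protein-coding genes with any region there. This limit equals the counts of Ccl2 itself, so the share does not measure how unusual Ccl2 is.

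**Figure D2:**
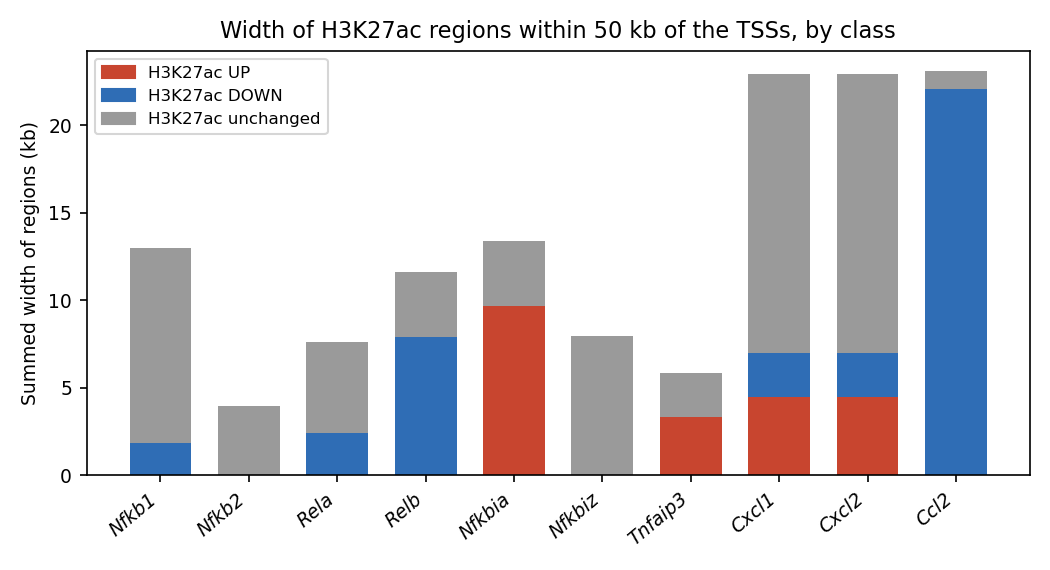
Stacked bars give the summed width in kb of the UP, DOWN and unchanged regions within 50 kb of the TSSs of each gene, with Cxcl1 and Cxcl2 counting the same regions. Ccl2 has 22057 bp of DOWN and 0 bp of UP regions, and Nfkbia has 9697 bp of UP and 0 bp of DOWN regions.

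Within 50 kb of their TSSs, the 10 genes have 39 distinct regions, of which 6 are UP (15.4%), 8 are DOWN (20.5%) and 25 are unchanged (64.1%). Of all 32196 regions, 17.1% are UP and 10.5% are DOWN. At least 1 UP region lay within 50 kb of 4 genes (Nfkbia, Tnfaip3, Cxcl1 and Cxcl2), beside 46.9% of the protein-coding genes with a region there. At least 1 DOWN region lay within 50 kb of 6 genes (Nfkb1, Rela, Relb, Cxcl1, Cxcl2 and Ccl2), beside 27.7%. These genes are not independent, since Cxcl1 and Cxcl2 share their UP and DOWN regions and the DOWN regions of Relb lie at or near Apoc2. Gene bodies held 14 regions, 2 of them UP (Nfkbia and Cxcl2), 3 DOWN (Nfkb1, Rela and Ccl2) and 9 unchanged. UP and DOWN regions occurred within 50 kb of the same gene for Cxcl1 and Cxcl2 alone.

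**Figure D3:**
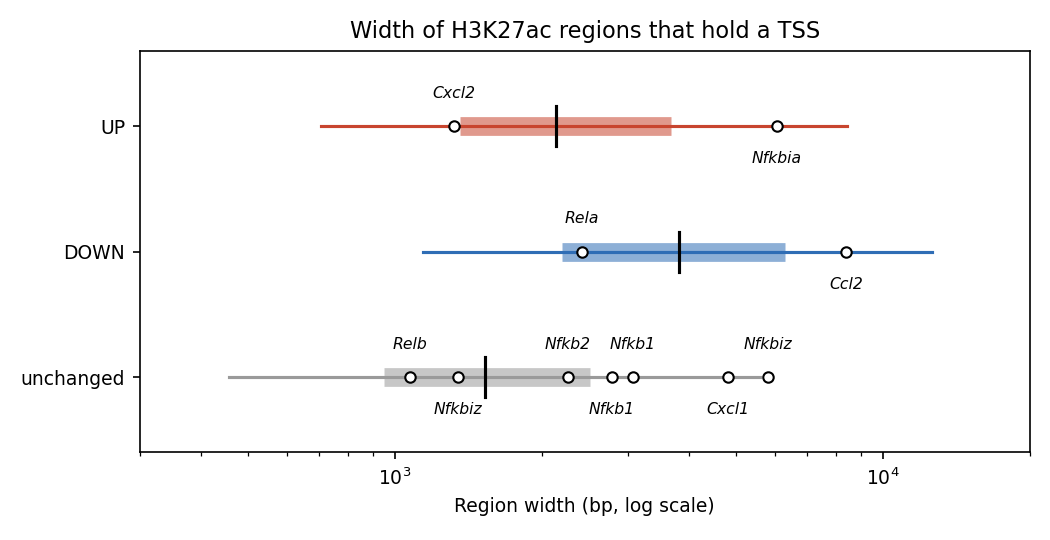
The width of regions that hold a TSS is given in bp on a log scale for each class, with the 5th to 95th percentile as a line, the quartiles as a bar, the median as a black tick and the regions at the TSSs of the NF-κB genes as labelled circles. Nfkbia and Ccl2 lie above the upper quartiles of 3672.5 bp (UP) and 6291.25 bp (DOWN), and Cxcl2 lies below the lower UP quartile of 1358.5 bp.

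The 11 regions at the TSSs of the 9 genes had a median width of 2785 bp and ranged from 1075 bp (Relb) to 8414 bp (Ccl2). Over all regions with a TSS, the medians of UP, DOWN and unchanged regions were 2136 bp, 3828.5 bp and 1530 bp. Of the 11, 7 were wider than the median of their class. Each of the 11 held at least 1 κB match, whereas among all regions with a TSS, 45.7% of the UP, 59.7% of the DOWN and 41.5% of the unchanged ones did. Per kb, which takes width into account, the Nfkb2 region had the highest density (7 matches, 3.1 per kb), followed by those of Relb (2 matches, 1.86 per kb), Cxcl2 (2 matches, 1.51 per kb) and Nfkbia (8 matches, 1.32 per kb). When overlapping matches were counted once, the Cxcl2 region had 0.757 per kb (1 match), below the 1.15 per kb (7 matches) of Nfkbia, and that of Nfkb2 was again highest at 2.65 per kb (6 matches). The region of Ccl2 had 5 matches (0.594 per kb) and that of Rela 1 match (0.414 per kb). All regions with a TSS had 0.263 matches per kb for UP, 0.285 for DOWN and 0.338 for unchanged regions. The highest densities were therefore in regions of the unchanged and UP classes, and no region at a TSS of these genes was below the density of its class. Base composition was not taken into account. G and C made 61.5% of the Nfkb2 and 65.7% of the Relb region, beside a median of 55.2% in unchanged regions with a TSS. They made 50.8% of the Cxcl2 and 52.3% of the Nfkbia region, beside 52.7% in UP regions with a TSS.

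**Figure D4:**
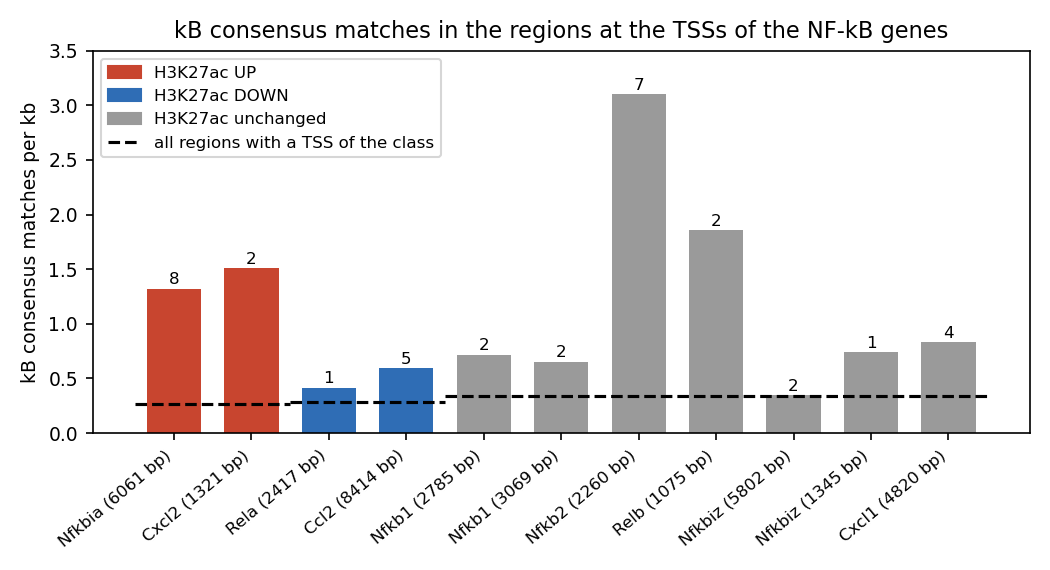
Bars give κB consensus matches per kb in each region at a TSS of the NF-κB genes, with the number of matches above the bar and the region width below it. Dashed lines are the density over all regions with a TSS of the same class (0.263 for UP, 0.285 for DOWN and 0.338 for unchanged), and the bar of the wider Nfkbiz region, at 0.345, is close to its line.

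AP-1 and ATF4/CHOP matches were counted in the same regions. The UP regions at the TSSs of Nfkbia and Cxcl2 held 0 AP-1 and 0 ATF4/CHOP matches, whereas the DOWN regions of Rela and Ccl2 held 4 and 3 AP-1 matches. This gives 0 per kb in the UP and 0.646 per kb in the DOWN regions at these TSSs, beside 0.385 and 0.32 per kb in all UP and DOWN regions with a TSS, of which 52.6% and 65.6% held a match. The 4 other UP regions, away from the TSSs, each held at least 1 AP-1 match, as did 63.2% of all UP regions. There, the UP regions downstream of Tnfaip3 held 0 κB matches, as did the one between Cxcl1 and Cxcl2, and the one downstream of Nfkbia held 2. An ATF4/CHOP match was found in the more distant UP region of Tnfaip3, in the UP region between the chemokine genes in the DOWN region upstream of Cxcl1 and in the unchanged region over the start of Nfkb1, 1 match in each. Of all UP, DOWN and unchanged regions, 13.7%, 10.5% and 6.24% held one. With so few regions, these counts are descriptive.

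A list of 112 other genes of the pathway was described in the same way. Of these, 65 (58%) had a TSS in a region, 14 of them in an UP region (21.5%) and 5 in a DOWN region (7.69%), shares close to the 21.4% and 8.91% of all genes. Among 10 genes with a region that encode kinases upstream of NF-κB or their adaptors, 4 were at UP regions, namely Chuk (IKKα, 2591 bp), Ikbkb (IKKβ, 1083 bp), Ikbke (3108 bp) and Tab3, an adaptor of the kinase TAK1 (349 bp), and Map3k8 was at a DOWN region (2545 bp) that also holds a TSS of 4833419F23Rik. Ikbkb and Ikbke also had a TSS in an unchanged region, of 2813 bp and 1987 bp. Among 17 receptor and adaptor genes with a region, Il1r1 (6975 bp), which encodes the interleukin-1 receptor and also had a TSS in an unchanged region of 771 bp, and Tnfrsf1b (1152 bp) were at UP regions, Traf5 (987 bp) was at a DOWN region, and 14, with Tnfrsf1a, Tlr4 and Myd88 among them, were at unchanged regions. Nfkbib, which encodes IκBβ, was at an UP region of 2302 bp that also holds a TSS of Sirt2, and Rel and Bcl3 were at unchanged regions.

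Among 15 genes of feedback and ubiquitin editing with a region, 3 were at UP regions and 12 at unchanged regions. The UP regions were at Otulin, which encodes the deubiquitinase of linear ubiquitin chains (13583 bp), Rnf11, a partner of A20 (7473 bp), and Rbck1, a subunit of the linear ubiquitin ligase (1376 bp). Those of Birc2, Birc3, Cyld, Tnip1 and Zc3h12a were unchanged. In the group of cytokines and other targets, 13 of 30 (43.3%) had a region at a TSS, close to the 44.7% of all protein-coding genes. The 17 without one include Tnf, Il1b and Il6. Bcl2l1 (6893 bp), the complement gene C3 (9663 bp) and Lif (1235 bp) were at DOWN regions, Il23a (753 bp) was at an UP region, and Icam1, Sod2, Irf1 and Lcn2 were at unchanged regions.

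**Figure D5:**
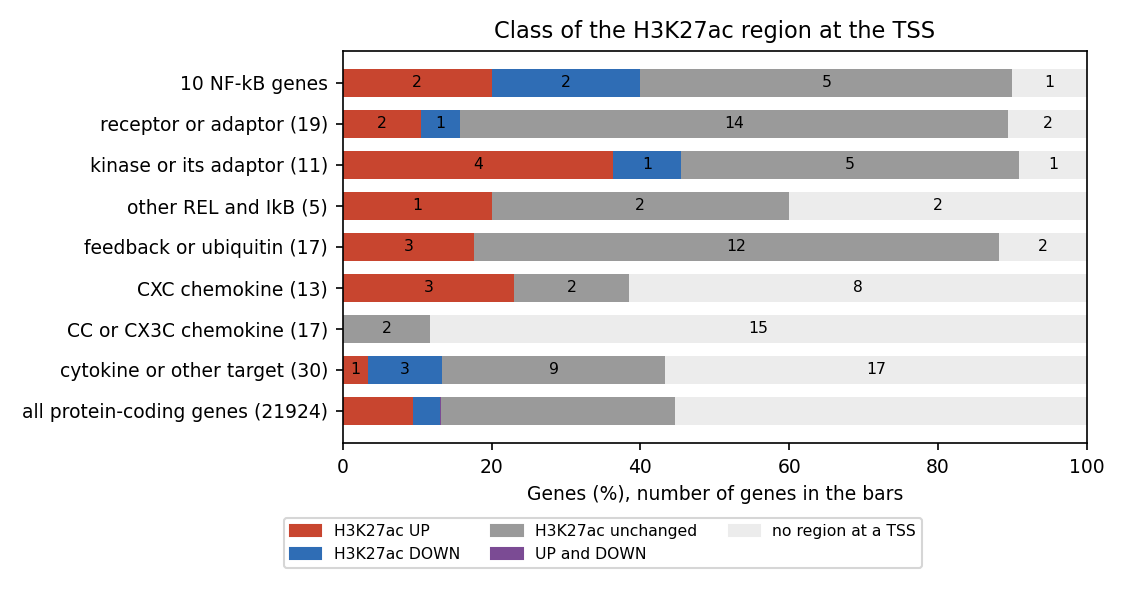
Horizontal bars give the percentage of genes whose TSSs lie in UP, DOWN, both, unchanged or no H3K27ac regions for the 10 NF-κB genes, for 7 groups of other pathway genes and for 21924 protein-coding genes, with numbers of genes in the bars. DOWN segments appear for the 10 genes and in 3 of the 7 groups. Most CC and CX3C chemokine genes (15 of 17) have no region, as have 12119 of the 21924 protein-coding genes.

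The list holds 30 other chemokine genes, of which 7 (23.3%) had a region at a TSS, beside 44.7% of all protein-coding genes. Of the 7, 3 (42.9%) were at UP regions, 0 at DOWN regions and 4 at unchanged regions. Among all genes with a TSS in a region, 21.4% were at UP and 8.91% at DOWN regions. The 7 genes do not allow a statement about these shares. Cxcl10 (1976 bp) and Cxcl11 (4902 bp), neighbours on chromosome 5 that attract activated T cells, and Cxcl12 (2283 bp) were at UP regions, and Cxcl9, beside Cxcl10, was at an unchanged region of 267 bp. Ccl7, Ccl8, Ccl11 and Ccl12, which lie in the same cluster as Ccl2, had no region at a TSS, and neither had Cxcl3 or Cxcl5. Ccl7 and Ccl11 each had 3 DOWN and 0 UP regions within 50 kb, the same counts as Ccl2, and Ccl8 and Ccl12 had no region there. The windows of genes in a cluster can cover the same regions, so the counts of Ccl7 and Ccl11 are not separate from that of Ccl2.

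Chemokines are made by several liver cell types, so markers of these were looked up. Of 12 hepatocyte markers, 11 had a TSS in a region (1 UP, 3 DOWN and 7 unchanged), beside 44.7% of all protein-coding genes. Among the 11 were Alb (8259 bp, unchanged), Hnf4a (13466 bp, DOWN) and Asgr1 (4383 bp, UP), and Cyp2e1 had none. Of 12 Kupffer cell and macrophage markers, 2 had one, Cd14 (2703 bp) and Cd68, whose region also holds a TSS of Mpdu1, both unchanged, and Adgre1, Clec4f, Csf1r and Spi1 had none. A region at a TSS was found for 1 of 8 endothelial (Stab2, unchanged), 0 of 8 stellate and 2 of 6 cholangiocyte markers (Sox9, UP, and Spp1, unchanged). None of these lists gives the level of a cell type, and the part of other cells in the chemokine calls was not tested.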

How the data were processed

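MPH were subjected to H3K27ac ChIP-seq. Per the paper's methods, reads were mapped to mm10 (Bowtie and MACS2 are named in the submitters' notes), duplicates and blacklisted regions were removed, broad peaks were called with MACS2 on pooled libraries, and bins of 150 bp (reads extended to 200 bp) were filtered against input, normalized by loess and tested with csaw 1.6.1 in a paired design. Among regions at an FDR of at most 0.05, the count of UP bins over DOWN bins was 2 or more for UP and 0.5 or less for DOWN. The values the authors deposited are start and end positions, with no score or signal. Depth is unknown.

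A gene was placed at a region that holds a TSS of any GENCODE M21 transcript, and a region counted within 50 kb of any TSS or in the gene body on any overlap. Percentiles compare widths. Motifs were searched in GRCm38.p6, with overlapping matches counted separately. No test was made, because the lists hold no value per library and the genes and lists were chosen with earlier results of these data known. All 10 genes are named, as are pathway genes at changed regions, and other pathway genes are examples chosen after their calls were seen. Overlap counting and the search for AP-1 and ATF4/CHOP matches were tested on simulated data, but the search for κB matches was not. Alternatives were the distance, TSS set, minimum width and motif settings below. Python 3.11.15, numpy 2.4.6, scipy 1.17.1 and matplotlib 3.10.9 were used.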

Additional observations from a re-analysis of the deposited data

How the results depend on the processing

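No paired analysis was possible because no library has values of its own in the region lists, which also kept replicates from being left out in turn. A stricter threshold on the FDR could not be applied, and regions of at least 1 kb took its place. Of 82 recomputed counts, shares and widths, 59 stayed within the limits set (1.5 times, or the interval of a share) and 23 moved beyond them. With a margin of 500 bp around the TSS required, 1 of the 10 genes was at an UP region and 2 at none (Cxcl2 moved), and 7 and 3 pathway genes were at UP and DOWN regions. With the gene start as the only TSS, 3 pathway genes were at DOWN regions. The windows of 10 kb and 100 kb held 3 and 14 UP, 4 and 13 DOWN, and 11 and 41 unchanged regions, and that of 25 kb held 5 DOWN and 15 unchanged regions, beside 6 UP regions, so that UP counts exceeded DOWN counts at 25 kb and 100 kb but not at 10 kb or 50 kb. Gene bodies wholly containing a region had 0 UP, 1 DOWN and 4 unchanged regions, and without regions at a TSS 0, 1 and 2. The density of κB matches within 50 kb, 0.685 per kb in UP, 0.354 in DOWN and 0.489 in unchanged regions, was 0.333, 0.5 and 0.647 in the central 500 bp of each region, which turned UP from the highest class to the lowest, and 0.171, 0.0545 and 0.0905 with a stricter consensus. Counting overlapping matches once, an alternative chosen after seeing the data, gave 0.571, 0.354 and 0.434.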
